A study of Mus musculus with 6 samples.

Results

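The LIM domain is a zinc-binding fold that holds proteins together, and the 10 genes described here encode a set of small LIM proteins that sit on actin filaments or move to the nucleus. They are Lmcd1, the FHL genes Fhl1, Fhl2 and Fhl3, the cysteine and glycine-rich protein genes Csrp1 and Csrp2, and the PDZ and LIM domain genes Pdlim1, Pdlim4, Pdlim5 and Pdlim7. The 10 were listed by name from the 35275 rows of the deposited table, and they were chosen by their FPKM in NNMT against control libraries, with Lmcd1 and Fhl1 heading the list. Their levels are therefore given as a description, and the calls that the fit over the whole table made among them support nothing.

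The data are RNA sequencing of 3T3 cells, immortalised fibroblasts that were derived from mouse embryos. The control group (n = 3 libraries) carried a control construct and the NNMT group (n = 3) an overexpression construct for nicotinamide N-methyltransferase, which uses S-adenosylmethionine to methylate nicotinamide. All cells grew for 48 h in methionine-free DMEM brought to 10 µM methionine, with 10% dialyzed serum. The labels give no vector, promoter or construct species, and do not say whether a group was 1 clone, 1 pool or several transductions, so that a difference between 2 starting populations cannot be told apart from one of NNMT. Nnmt itself had 7.60, 5.25 and 6.51 FPKM in control replicates 1, 2 and 3, and 15.7, 15.0 and 18.3 FPKM in the unnumbered NNMT library and in NNMT replicates 2 and 3. Its log2 difference was 1.23 (SE 0.11, limma adjusted p = 4.75e-06).

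The values, read here as FPKM, scale reads by a transcript length and the library total. For 71.11% of genes above 0 this was the length of the longest annotated transcript. The order of different genes by FPKM therefore also depends on the length used for each. Whole reads could be recovered from them, 31622257 to 39982087 per library. All 12 fibroblast markers examined were above 1 FPKM on average. Of 12 skeletal and heart muscle markers 9 stayed under 0.2 FPKM in every library, and the regulators Myod1 and Myog were at 0 in all. The exception by level was Tnnt2, a troponin, at 8.07 to 14.9 FPKM in control and 2.06 to 4.32 in NNMT libraries, which set most of a muscle marker sum of 11.9 to 15.1 FPKM in control and 2.70 to 5.48 in NNMT cells. Control replicate 1 also held more Ckm and Tnni2 (1.02 and 2.63 FPKM) than any other library (up to 0.120 and 0.822 FPKM). The part of these traces in what follows was not tested. Smooth muscle markers summed to 894 to 932 FPKM in control and 1161 to 1188 in NNMT libraries, nearly all of it Acta2 and Tagln, while epithelial, endothelial, blood and adipocyte markers summed to at most 2.88 FPKM.

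LIM proteins of this kind work as adaptors. FHL and Lmcd1 proteins shuttle between adhesion sites and the nucleus, where they modulate transcription factors. CRP and PDLIM proteins bind alpha-actinin and other actin cross-linkers along stress fibres and at the Z disc of muscle. Many of these genes are known from heart, skeletal or smooth muscle, and fibroblasts express several of them as part of their contractile apparatus. Serum response factor (SRF), which binds the CArG box and acts with the actin-sensing MRTF coactivators, controls several members of this class.

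Promoter windows are shown for the members that carry a CArG box there, since these include both genes that differed most. RefSeq (GRCm38.p6) gave 13 windows of 300 bases, from 250 before to 50 after an annotated start, for 9 of the 10 genes. The CArG box was searched by name on both strands, as were the cAMP response element TGACGTCA, the CCAAT box and the TEAD-binding MCAT element GGAATG. No overlap between motifs was excluded. The capitals mark the CArG box, TGACGTCA and CCAAT on either strand. The windows are Lmcd1 at chr6:112273508-112273807 (plus strand), Fhl1 at chrX:56779433-56779732 (plus), and Fhl2 at chr1:43163912-43164211 and chr1:43196712-43197011 (both minus).
Lmcd1: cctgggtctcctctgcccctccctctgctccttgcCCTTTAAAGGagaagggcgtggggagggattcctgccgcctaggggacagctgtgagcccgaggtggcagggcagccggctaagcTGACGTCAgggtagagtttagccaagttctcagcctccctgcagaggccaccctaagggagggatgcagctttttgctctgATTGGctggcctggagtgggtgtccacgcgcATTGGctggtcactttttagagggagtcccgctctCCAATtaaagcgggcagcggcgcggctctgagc
Fhl1: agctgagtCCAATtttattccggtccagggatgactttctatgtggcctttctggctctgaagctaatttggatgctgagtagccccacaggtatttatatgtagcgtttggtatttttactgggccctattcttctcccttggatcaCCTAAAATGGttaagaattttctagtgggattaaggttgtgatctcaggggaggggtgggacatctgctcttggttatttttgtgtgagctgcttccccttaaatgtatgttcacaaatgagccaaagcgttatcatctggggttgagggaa
Fhl2, inner start: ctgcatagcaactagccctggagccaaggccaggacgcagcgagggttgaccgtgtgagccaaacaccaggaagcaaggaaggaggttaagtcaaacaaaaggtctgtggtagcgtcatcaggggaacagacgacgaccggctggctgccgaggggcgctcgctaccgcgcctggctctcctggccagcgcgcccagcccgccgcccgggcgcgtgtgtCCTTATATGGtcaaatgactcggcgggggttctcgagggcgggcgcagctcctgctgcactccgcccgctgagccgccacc
Fhl2, outer start: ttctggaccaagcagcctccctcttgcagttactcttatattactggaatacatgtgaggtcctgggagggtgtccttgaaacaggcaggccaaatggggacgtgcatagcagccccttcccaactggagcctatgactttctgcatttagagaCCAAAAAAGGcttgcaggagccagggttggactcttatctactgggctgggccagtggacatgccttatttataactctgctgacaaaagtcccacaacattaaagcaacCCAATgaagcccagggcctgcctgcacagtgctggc
A CArG box stood in 4 of the 13 windows, which belong to 3 genes, and in 1.63% of all 32851 RefSeq windows. It began 215 bases before the start in Lmcd1, 102 in the Fhl1 window shown, and 31 and 96 in the inner and outer Fhl2 windows. The second Fhl1 window held none. Both Fhl1 windows lie at starts inside the gene, downstream of the start of its span at 56731787. TGACGTCA stood in the Lmcd1 window alone of the 13, 130 bases before the start, and in 1.79% of all windows. CCAAT was in 5 of the 13 and in 37.4% of all windows, with 3 copies at Lmcd1, and GGAATG was in none of the 13 and in 14.7% of all. CpG dinucleotides numbered 12 in the Lmcd1 window, 3 in each Fhl1 window and 31 at Pdlim4, beside a median of 7 over all windows. In the windows of the other members they ran from 1 at the outer Fhl2 start to 29 at Fhl3. A match is a matter of letters and not evidence that a factor binds.

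Lmcd1 and Fhl1 were near absence in opposite groups, while the abundant members differed by less than 1.6-fold. Lmcd1 encodes a cysteine-rich LIM protein that is known in mice to restrain GATA6 in lung and heart and to promote calcineurin signalling in heart muscle. Its gene (ENSMUSG00000057604) spans 112273758 to 112330425 on chromosome 6 of GRCm38, plus strand. Lmcd1 had 0.170, 0.119 and 0.0548 FPKM in control replicates 1, 2 and 3, and 9.96, 6.49 and 8.99 FPKM in the NNMT libraries, in the order unnumbered, 2 and 3. The lowest NNMT library was far above the highest control library, and NNMT replicate 2 was the lowest of its group. Those levels rest on 10, 8 and 3 reads in the control libraries and on 690, 397 and 565 reads in the NNMT libraries. The means were 0.114 ± 0.0576 and 8.48 ± 1.79 FPKM (SD, n = 3), a ratio of 74.1. Leaving out 1 library gave ratios from 58.8 (without control replicate 3) to 97.8 (without control replicate 1). On the log2(FPKM + 1) scale, which understates changes of low genes, the difference was 3.07. Its rank was 10 among the rises of 10882 tested genes on that scale and 2 by the ratio of means.

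Fhl1 encodes a LIM-only protein of striated muscle, whose mutations cause X-linked myopathies in humans. The gene (ENSMUSG00000023092) lies on X, from 56731787 to 56793346, plus strand. Fhl1 had 4.17, 5.33 and 4.41 FPKM in control replicates 1, 2 and 3, and 0.0180, 0.0204 and 0.0696 FPKM in the unnumbered NNMT library and NNMT replicates 2 and 3. Every NNMT library was close to 0, with 2, 2 and 7 reads against 387 to 575 in the control libraries. The means were 4.64 ± 0.614 and 0.0360 ± 0.0291 FPKM, so that control cells held 129-fold more. Leaving out 1 library gave from 103-fold more (without the unnumbered NNMT library) to 241-fold more (without NNMT replicate 3). NNMT replicate 3 carried most of the NNMT reads. The log2 difference was -2.44, rank 12 among the falls and rank 3 by ratio. Bulk RNA does not tell fewer cells expressing a gene from less RNA in each cell. Both Lmcd1 and Fhl1 passed the filter on low values (a mean of 1 FPKM over the 6 libraries) only through the group in which they were high.

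**Figure D1:**
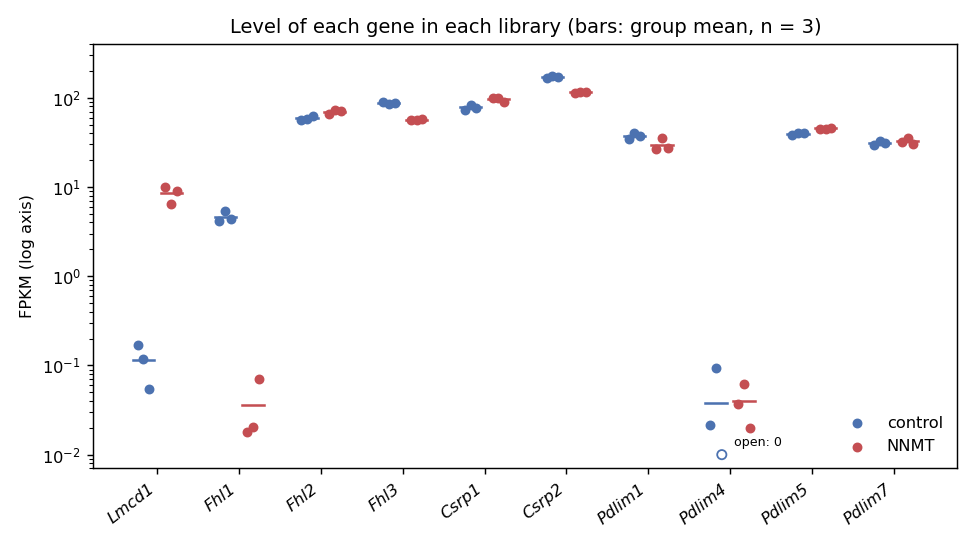
Level of each of the 10 genes in FPKM on a log axis, with a point per library and a bar at the group mean (n = 3 control and 3 NNMT libraries), and an open point for Pdlim4 where it is listed at 0. Lmcd1 and Fhl1 trade places near the bottom of the axis, Pdlim4 is near 0 in both groups, and the other 7 stay between 26.5 and 177 FPKM.

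The surroundings of both genes were examined, in windows of 1 Mb on either side chosen after the values were seen. The windows run from the ends of the GENCODE span of each gene, and distances are between the start sites of such spans. On X, 305 of 338 tested genes were lower in NNMT cells and 8 higher (limma adjusted p under 0.05), with a median log2 difference of -0.70 and quartiles of -0.91 and -0.49. Fhl1 lay far outside these quartiles and had the fourth largest fall of the chromosome (rank 4). All 5 tested neighbours of Fhl1 reported here were lower. Of these, Zfp449, Ints6l, Mmgt1 and Htatsf1 had log2 differences between -0.85 and -0.61, within the range of the chromosome. Rbmx, an RNA-binding protein gene 661 kb away, went from 10.5 ± 0.0915 to 2.61 ± 0.141 FPKM (log2 difference -1.67, adjusted p = 7.15e-09). Closer by, Map7d3, a microtubule-associated protein gene whose start lies 90.5 kb from that of Fhl1, was at 0.183, 0.231 and 0.229 FPKM in control replicates 1, 2 and 3 and at 0 in the 3 NNMT libraries, too low to be tested. The unnamed loci 3830403N18Rik and Gm773, upstream in the same interval, were also untested and averaged 1.43 and 1.5 FPKM in control and 0.0623 and 0.0564 in NNMT libraries. These 3 untested genes were named after their values were seen. The other 5 untested neighbours with any reads averaged at most 0.0570 FPKM in either group.

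Around Lmcd1 the picture was different, since no other gene with a start site within 400 kb of that of Lmcd1 was tested. The muscle caveolin gene Cav3 was at 0 in every library, and the oxytocin receptor gene Oxtr did not exceed 0.0361 FPKM. The nearest tested gene, Rad18, a ubiquitin ligase of DNA damage tolerance 423 kb away, had a log2 difference of 0.21 (adjusted p = 0.0223), a call lost without control replicate 2 (adjusted p = 0.0795), without NNMT replicate 2 (0.0588) and without NNMT replicate 3 (0.0962). Of 8 tested neighbours 5 were higher and 1, Mtmr14, was lower, with log2 differences from -0.35 to 0.61. Over chromosome 6, 204 of 524 tested genes were higher and 116 lower, with a median log2 difference of 0.07 and quartiles of -0.14 and 0.27. Lmcd1 had the largest rise among them.

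**Figure D2:**
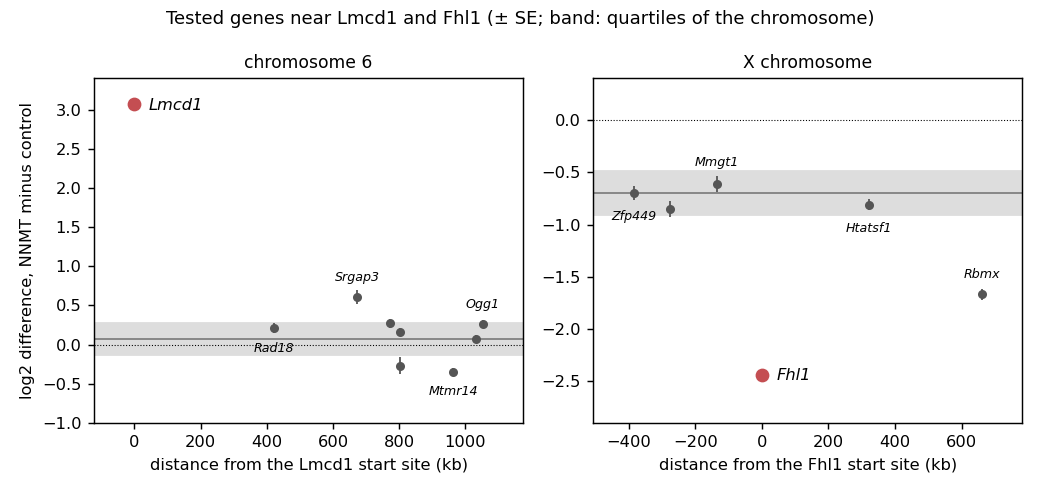
Log2 difference (NNMT minus control, log2(FPKM + 1), ± SE from limma for the neighbours) of tested genes against the distance of their start site from that of Lmcd1 (left) or Fhl1 (right) in kb, with the median (line) and quartiles (band) of the chromosome. Lmcd1 at 3.07 and Fhl1 at -2.44 stand away from their neighbours, which run from -0.35 to 0.61 and from -1.67 to -0.61.

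The genes whose profiles over the 6 libraries were closest to each of them, by Euclidean distance on log2(FPKM + 1) among tested protein-coding genes, lay on several chromosomes. For Lmcd1 they were Dpt, the matrix protein dermatopontin (distance 0.452), Srpx2 (0.528), the stathmin Stmn3 (0.610), the adhesion receptor Adgrg1 (0.677) and the secreted Wnt-binding protein Sfrp2 (0.701). Dpt averaged 0.138 ± 0.0505 FPKM in control and 7.09 ± 1.57 in NNMT cells and, like Lmcd1, was lowest within its group in NNMT replicate 2 (5.28 FPKM). Srpx2 is X-linked and went the other way from most of that chromosome, from 0.108 ± 0.0458 to 7.12 ± 0.323 FPKM. For Fhl1 they were the microtubule-binding protein gene Eml2 (0.154), Renbp (0.414), the neuronal tubulin gene Tubb3 (0.532), Rtl8c (0.681) and the small GTPase gene Rab29 (0.789), of which Renbp and Rtl8c are X-linked. Eml2 on chromosome 7 averaged 4.67 ± 0.277 FPKM in control cells and 0.0555 ± 0.0739 in NNMT cells. Its highest NNMT value was in replicate 3 as for Fhl1, on 14 and 7 reads. Renbp, Tubb3, Rtl8c and Rab29 had their highest NNMT value in another library. With 3 libraries a group such likeness mainly restates the group difference.

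The other FHL genes were abundant in both groups and their order by FPKM turned over. Fhl2, a coactivator that binds beta-catenin and other nuclear factors and is itself a target of SRF, had 56.4, 58.4 and 61.8 FPKM in the control libraries, in the order 1, 2 and 3, against 65.3, 71.9 and 71.1 FPKM in the NNMT libraries. The groups did not overlap, and the means of 58.9 ± 2.76 and 69.4 ± 3.57 FPKM differ 1.18-fold. Fhl3, which binds actin and is known as a regulator of myoblast genes, stood at 89.5, 85.5 and 86.3 FPKM in control libraries and at 56.7, 56.7 and 57.4 FPKM in NNMT libraries. It was thus lower in every NNMT library, with means of 87.1 ± 2.10 and 56.9 ± 0.373 FPKM (1.53-fold). Fhl3 lies on chromosome 4, where the median log2 difference was -0.23 with quartiles of -0.45 and 0.06, and its own was -0.61. Within each library, where scaling by library total cancels, the ratio of Fhl2 to Fhl3 was 0.630, 0.683 and 0.716 in control replicates 1, 2 and 3. It was 1.15, 1.27 and 1.24 in the NNMT libraries. By FPKM, Fhl3 was the higher of the pair in all control libraries and Fhl2 in all NNMT libraries. The side of 1 on which the ratio lies depends on the transcript lengths used, its change between the groups does not. The summed level of the 3 FHL genes was 151 ± 2.08 FPKM in control and 127 ± 4.04 in NNMT cells, and Fhl1 made up 2.78% to 3.57% of it in control and at most 0.0541% in NNMT libraries. The span of Fhl2 holds the processed pseudogene Gm8210 on the opposite strand, which had up to 186 FPKM and shares 0 exonic bases with Fhl2.

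The CRP genes stood apart in opposite directions as well. Csrp1, a partner of alpha-actinin and zyxin, had 73.3, 83.9 and 76.8 FPKM in control replicates 1, 2 and 3, and 99.8, 99.2 and 89.1 FPKM in the NNMT libraries. All NNMT libraries were above all control libraries (78.0 ± 5.40 against 96.0 ± 5.99 FPKM, 1.23-fold). Csrp2, known from smooth muscle, stood at 165, 177 and 172 FPKM in control libraries and at 113, 117 and 117 FPKM in NNMT libraries, the highest level of the set in both. It was lower in every NNMT library (171 ± 6.06 against 116 ± 2.28 FPKM, 1.48-fold). The ratio of Csrp1 to Csrp2 went from 0.455 ± 0.0168 to 0.829 ± 0.0610, without overlap, so that the genes came closer to equal FPKM while Csrp2 remained ahead. Their summed level was 249 ± 11.5 FPKM in control and 212 ± 5.57 in NNMT cells.

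**Figure D3:**
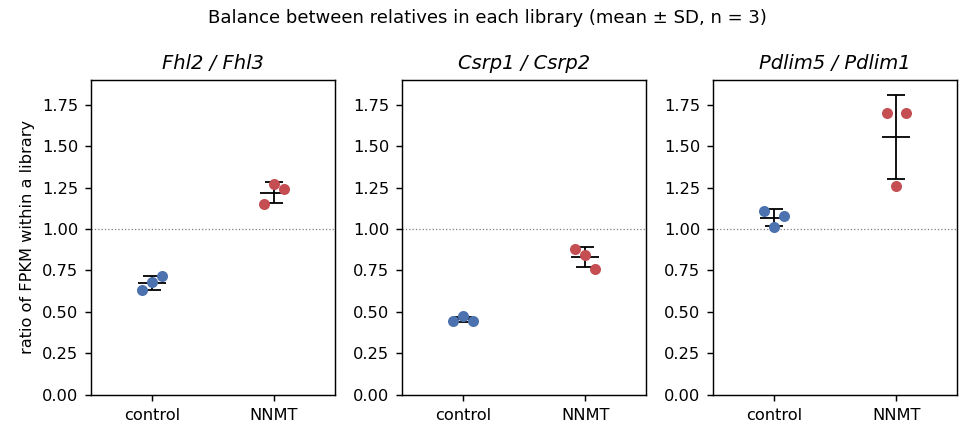
Ratio of FPKM between related genes within each library, with a point per library and the mean ± SD (n = 3). The ratio of Fhl2 to Fhl3 crosses 1 (0.676 ± 0.0434 in control and 1.22 ± 0.0624 in NNMT cells), that of Csrp1 to Csrp2 stays under it, and that of Pdlim5 to Pdlim1 starts near it (1.07 ± 0.0513) and is higher but spread out in NNMT cells (1.55 ± 0.254).

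Among the PDLIM genes, Pdlim5 and Pdlim7 differed by less than any FHL or CRP gene, and Pdlim1 did not. Pdlim5, which links protein kinase C to the actin cytoskeleton, had 37.9, 40.1 and 40.2 FPKM in control replicates 1, 2 and 3 and 45.0, 44.5 and 46.2 FPKM in NNMT libraries. The groups did not overlap and the means were 39.4 ± 1.30 and 45.2 ± 0.841 FPKM (1.15-fold). The log2 difference of Pdlim5, 0.20, lay within the quartiles of its chromosome 3, -0.06 and 0.32. Pdlim1, an alpha-actinin partner, stood at 34.1, 39.9 and 37.2 FPKM in control libraries and at 26.5, 35.3 and 27.1 FPKM in the unnumbered NNMT library and NNMT replicates 2 and 3. Its means were 37.1 ± 2.90 and 29.6 ± 4.92 FPKM, but NNMT replicate 2 lay within the control range, and its spread of 16.6% in NNMT cells exceeded the median of tested genes (6.05%). Pdlim7, or Enigma, which binds tropomyosin, stood at 29.6, 32.8 and 31.1 FPKM in control and at 32.1, 35.0 and 29.9 FPKM in NNMT libraries. These overlapped, with means of 31.2 ± 1.63 and 32.3 ± 2.56 FPKM. Pdlim4, or RIL, another alpha-actinin partner, had 1, 5 and 0 reads in control and 2, 3 and 1 in NNMT libraries, at most 0.0937 FPKM, too few to compare. The PDLIM sum was 108 ± 5.57 FPKM in control and 107 ± 6.66 in NNMT cells.

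Ordered by mean FPKM, control cells had Csrp2, Fhl3, Csrp1, Fhl2, Pdlim5, Pdlim1, Pdlim7, Fhl1, Lmcd1 and Pdlim4. Of these neighbours only Pdlim5 with Pdlim1 and Lmcd1 with Pdlim4 overlapped between libraries. In NNMT cells the order was Csrp2, Csrp1, Fhl2, Fhl3, Pdlim5, Pdlim7, Pdlim1, Lmcd1, Pdlim4 and Fhl1, with overlap of Pdlim7 with Pdlim1 and of Pdlim4 with Fhl1. Summed over the 10 genes the level was 508 ± 16.6 FPKM in control and 454 ± 11.0 in NNMT cells, and Lmcd1 supplied 0.0227% ± 0.0120 and 1.87% ± 0.432 of it.

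Of the 10 genes 9 reached the filter of 1 FPKM, and 8 of these were called by limma at an adjusted p under 0.05, 4 higher and 4 lower. Among all 10882 tested genes 65.6% were called, 35.0% higher and 30.6% lower. The libraries of the groups did not overlap for 7 of the 10, and for 69.9% of all tested genes. Since the genes were picked with this comparison known, nothing is read from these counts. The lower call of Pdlim1 was lost without control replicate 2, without the unnumbered NNMT library, without NNMT replicate 3 and with no filter on low values. The 8 directions were the same under quantile normalization and medians of ratios scaling.

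The wider LIM family, a list of 60 other genes, showed both directions at close to the background rate. Of 31 that were tested 12 rose and 10 fell (71.0% called), with a median log2 difference of 0.09 beside 0.03 over all tested genes. The other 29 were under the filter, 8 of them at 0 in every library, including Csrp3 and Fhl5, the striated muscle and testis relatives of Csrp1 and Fhl1. Not all 29 were silent. Lhx8, untested and named after its values were seen, averaged 0.188 ± 0.0614 FPKM in control and 1.36 ± 0.284 in NNMT libraries. Its ratio of 7.27 rests on 38 and 304 reads. With no filter on low values 16 genes of the list rose and 10 fell, beside 4396 and 3515 of the 20528 genes then tested. That fit also took in list genes under the filter, so these counts are not out of 31. Pdlim2, which targets NF-kappaB for degradation, stood at 7.30, 6.80 and 7.13 FPKM in control and at 18.8, 15.2 and 18.2 FPKM in NNMT libraries. It rose 2.46-fold (log2 difference 1.18, SE 0.074, adjusted p = 4.45e-07), without overlap between the groups. Ablim1, an actin-binding LIM protein, rose 2.82-fold from 2.52 ± 0.0761 to 7.10 ± 0.761 FPKM (log2 difference 1.20, adjusted p = 4.45e-07). Lmo7, an adhesion protein, rose 2.26-fold to 7.79 ± 0.149 FPKM (adjusted p = 1.86e-07). Fblim1, or migfilin, a filamin-binding adaptor encoded on chromosome 4, fell 2.25-fold from 14.9 ± 0.220 to 6.61 ± 0.764 FPKM (adjusted p = 6.60e-07). The following genes were named after their values were seen. Tes, whose product like that of Lmcd1 has a PET domain beside its LIM domains, rose 1.45-fold to 37.1 ± 2.90 FPKM (adjusted p = 0.000119). The tested Prickle genes, which also encode PET domains, did not rise. Prickle2 fell (log2 difference -0.26, adjusted p = 0.0202) and Prickle1 was not called (-0.13, adjusted p = 0.249). Zyx, encoding zyxin, rose 1.24-fold to 232 ± 7.98 FPKM (adjusted p = 0.000194). Of its tested relatives, Ajuba was called higher (0.46), Lpp, Limd1 and Wtip lower (-0.45, -0.47 and -0.41), and Trip6 was not called (-0.05). The remaining relatives in the families of the 10 genes, Pdlim3, Ldb3 and Fhl4, stayed at or under 0.215 FPKM.

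**Figure D4:**
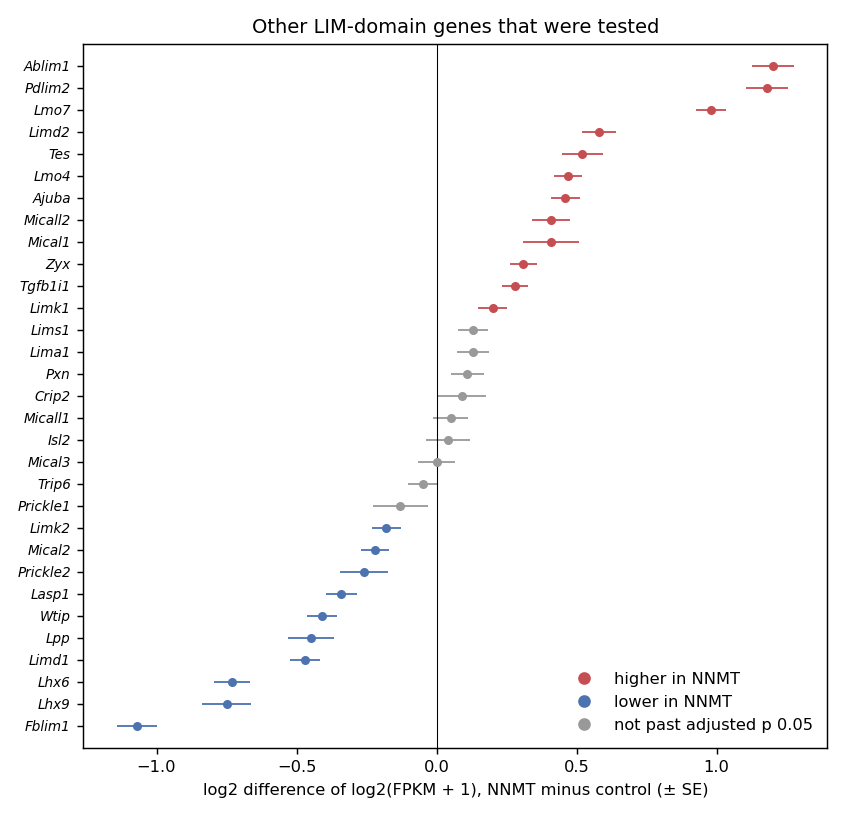
Log2 difference (NNMT minus control, on log2(FPKM + 1)) with its limma SE for the 31 tested genes of the wider LIM list, coloured by call at an adjusted p of 0.05. The list spreads to both sides, from Fblim1 at -1.07 to Ablim1 at 1.20, with 9 genes not past the threshold.

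Genes known to work with these proteins were read from further lists. The shares called in these lists stand beside 65.6% of all tested genes. Of 18 tested actin-binding partners 7 rose and 5 fell (66.7% called). Flnc, the muscle-type filamin, rose 2.05-fold to 146 ± 12.8 FPKM (adjusted p = 8.71e-07), Tpm2, a tropomyosin, rose 1.58-fold to 139 ± 4.36 FPKM (adjusted p = 7.56e-07), and Palld, encoding palladin, rose 1.64-fold to 45.4 ± 1.93 FPKM (adjusted p = 1.33e-06). The X-linked filamin gene Flna fell 1.65-fold from 388 ± 24.5 to 236 ± 11.2 FPKM (adjusted p = 2.29e-06). Its log2 difference of -0.72 lay near the median of tested X genes, -0.70. CRP and PDLIM proteins bind alpha-actinins, whose genes were named after their values were seen. Actn1 fell from 192 ± 7.26 to 166 ± 6.36 FPKM (adjusted p = 0.00341) and Actn4 from 239 ± 13.7 to 188 ± 14.0 FPKM (adjusted p = 0.00085). The low Actn3 was not called, at 1.26 ± 0.687 FPKM in control and 0.973 ± 0.159 in NNMT cells (adjusted p = 0.436).

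A further list held SRF, the MRTF genes and SRF targets, both muscle-type genes and others such as Egr1 and the cytoplasmic actin gene Actb. Of 16 tested genes of this list 4 rose and 7 fell (68.8% called, median -0.16). Only 4 fell without control replicate 2 and likewise without NNMT replicate 3. Myl9, a myosin light chain, rose 3.50-fold to 63.2 ± 2.95 FPKM (adjusted p = 1.98e-09), Acta2, smooth muscle actin, rose 1.42-fold to 1004 ± 10.3 FPKM (adjusted p = 2.31e-06) and the coactivator gene Mrtfa rose 1.71-fold to 32.6 ± 2.45 FPKM (adjusted p = 3.04e-06). Egr1, an immediate-early transcription factor gene, fell 1.99-fold to 19.7 ± 2.42 FPKM (adjusted p = 4.38e-06). Named after their values were seen, Srf fell from 31.6 ± 1.46 to 27.6 ± 1.91 FPKM (adjusted p = 0.0174, but 0.0752 without control replicate 2 and 0.0771 without NNMT replicate 3), and Tagln from 180 ± 7.41 to 145 ± 4.53 FPKM (adjusted p = 0.000307). The muscle-type genes of the list did not share 1 direction.

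For the pathways in which Lmcd1 is known, 7 of 15 tested calcineurin and GATA genes rose and 5 fell (80.0% called, median 0.13). The number that rose was 6 under quantile normalization and under medians of ratios scaling. It was 5 with only the libraries numbered 2 and 3 and no block, and 8 without NNMT replicate 2. Ppp3ca, a catalytic subunit of calcineurin, rose 1.79-fold to 59.6 ± 4.53 FPKM (adjusted p = 1.35e-06). Rcan1, a calcineurin regulator that calcineurin itself induces, rose 1.73-fold to 12.9 ± 0.429 FPKM (adjusted p = 1.83e-06). Its relative Rcan2 fell 3.34-fold to 1.42 ± 0.0301 FPKM (adjusted p = 1.69e-07). Gata4 rose 1.81-fold to 10.3 ± 0.992 FPKM (adjusted p = 7.65e-06), whereas Gata6, the factor on which Lmcd1 is known to act, was at 2.19 ± 0.290 and 2.19 ± 0.160 FPKM (adjusted p = 0.968) and is named after its value was seen.

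Of 18 tested nuclear and signalling partners of the FHL proteins 4 rose and 5 fell (50.0% called, median 0.06). The number that rose was 1 without control replicate 2 or without control replicate 3, 2 without NNMT replicate 3 and 2 under medians of ratios scaling. Id2, an inhibitor of helix-loop-helix factors, fell 2.69-fold to 7.76 ± 0.884 FPKM (adjusted p = 2.57e-07), and Jun fell 2.00-fold to 31.7 ± 2.35 FPKM (adjusted p = 2.67e-07). Crem and Nr4a1 fell 1.85-fold and 1.36-fold (adjusted p = 4.05e-05 and 0.000224). Rbpj, the Notch effector that an Fhl1 isoform binds, named after its values were seen, was at 25.7 ± 1.05 and 26.8 ± 0.732 FPKM (adjusted p = 0.284).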

How the data were processed

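RNA of 3 control and 3 NNMT cultures, which the submitters call biological replicates, was sequenced. CASAVA, STAR 2.5 and build mm10 are named per the submitters' processing notes, without a counter, annotation or strand setting. What the authors deposited is 1 table of values per gene and library without a unit, read here as FPKM because the values of a gene are whole multiples of a step. For 71.11% of genes above 0 the step matched the longest GENCODE M21 transcript, and whole reads (within 0.01) were recovered for 100.00% of 20528. Of the 6 columns 5 carry a replicate number, and the other is called the unnumbered NNMT library. Symbols and coordinates are from GENCODE M21 (GRCm38, the assembly of mm10), which paired 34490 of 35275 rows.

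A gene entered the test where its mean over the 6 libraries reached 1 FPKM. The test was limma 3.58.1 (R 4.3.3, with trend and robust moderation, two-sided), run on log2(FPKM + 1), with Benjamini-Hochberg adjustment over 10882 genes. The fit was also run on simulated data. The simulation held far fewer changed genes than were called here and took its spread from the control group. It therefore does not give the error rate in these data. The p-values measure the spread between these cultures. Log2 differences are NNMT minus control, and folds are ratios of mean FPKM where each group had 10 reads. The members and lists were chosen with earlier results of these data known. By rule the text names all members, Nnmt, the 4 genes with the smallest adjusted p of each list, and the 5 nearest profiles to Lmcd1 and Fhl1. The neighbours of both genes, and Tes, Zyx, Lhx8, Actn1, Actn3, Actn4, Srf, Tagln, Gata6 and Rbpj, were named after their values were seen, as were list relatives and markers given as at or near 0. So were the relatives of Tes and Zyx given beside them: Prickle1, Prickle2, Ajuba, Lpp, Limd1, Wtip and Trip6. The settings tried were 3 ways of scaling or counting, limma without trend or robust moderation, 2 filters, pseudocounts of 0.1 and 10, a block on replicate number and leaving out each library. A tested neighbour of Fhl1 is not reported here.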

Additional observations from a re-analysis of the deposited data

How the results depend on the processing

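Under the 17 alternatives, the genes higher and lower over the whole table (3806 and 3334) ranged from 2883 to 4396 and from 2609 to 3788, and the other LIM genes higher and lower (12 and 10) from 10 to 16 and from 7 to 10, each within 1.5 times its count. These are ranges of counts and not of shares, since the filters changed the number of genes tested. It was 8085 with a mean of at least 5 FPKM and 20528 with no filter, beside 10882 in the main fit. Leaving out each library in turn gave 3383 to 3858 and 2968 to 3355 genes, and 12 to 14 and 9 to 10 LIM genes. Medians of ratios scaling turned the balance over the table to 3394 higher and 3788 lower. Of 152 values for the 10 genes 0 changed the direction of a called gene and 8 moved by more than the replicate SD, all for Lmcd1, Fhl1 and Fhl3. With limma-voom on recovered reads Lmcd1 differed by 6.20 and Fhl1 by -7.06. With pseudocounts of 0.1 and 10 the values were 5.34 and 0.87 for Lmcd1 and -5.14 and -0.54 for Fhl1, which follows from the scale. For Fhl3 the value was -0.65 with medians of ratios and -0.54 with a pseudocount of 10. A replicate block on numbers 2 and 3, the numbers that both groups carry, gave 3910 genes higher and 3199 lower, beside 3670 and 2958 for the same 4 libraries without it, a comparison added after the data were seen. It gave 13 and 10 LIM genes. Deviations of same-numbered libraries correlated at 0.212 and 0.11, and with 2 pairs this does not show that the numbers pair the cultures. Lmcd1 in control cells and Fhl1 in NNMT cells rest on 21 and 11 reads, so that their ratios are imprecise. Among the other genes named with a test and followed through these settings, the calls of Srf and Rad18 were lost without single libraries. That of Rad18 was also lost where low genes were kept (adjusted p = 0.0637). The relatives of Tes and Zyx given beside them were not followed through the settings.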
